A study of Mus musculus with 6 samples.

Results

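The urea cycle and the enzymes that break down amino acids were followed in livers of Chga knockout and wild-type mice. Chga encodes chromogranin A, a prohormone stored in the secretory granules of neuroendocrine cells. The genes came from a list of 50 symbols that was chosen by pathway, and a gene was measured by its brightest probe set annotated to it alone. Of these, 44 of the 12393 genes named on the array in this way had such a probe set, and 42 of 8047 genes remained after a filter that kept the upper 60% of probe sets by mean signal. Kynu and Psat1 were removed as dim. Ass1 shared its probe set with another gene, and Gls2, Sds, Sdsl, Tdh and Amt had no probe set annotated to them here, so these 6 genes were not analysed.

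Total RNA of 3 knockout and 3 wild-type livers was hybridised to Affymetrix mouse arrays, 1 array per sample. The knockout mice carried the Chga knockout allele of Mahapatra and colleagues and the wild-type mice are credited by the labels to the same work. All were males aged 12 weeks, and the labels give no treatment, feeding state or genetic background. The knockout affects the whole animal, so liver changes cannot be assigned to the liver itself, and a homogenate cannot tell fewer cells of a type from less RNA per cell.

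The liver disposes of the nitrogen of dietary and body protein. Transaminases and glutamate dehydrogenase release amino nitrogen, the urea cycle in periportal hepatocytes turns ammonia into urea, and glutamine synthetase in the last pericentral hepatocytes traps what escapes. The carbon skeletons go through separate routes for tryptophan, lysine, tyrosine, histidine, glycine and serine, and to a smaller extent in liver for the branched chain amino acids, and several first enzymes of these routes are known to follow glucagon, glucocorticoids and protein intake.

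Values are array intensities in arbitrary units. Changes are knockout minus wild type on the log2(intensity + 16) scale, which understates the change of dim genes, from limma fitted to all 13576 kept probe sets with Benjamini-Hochberg adjustment over them. The 5 urea cycle, 4 tyrosine and 4 histidine genes with a probe set all lay at or above the 85.9th percentile of signal. The 8 hepatocyte markers measured were at or above the 99.5th percentile. The cholangiocyte (4 genes) and adipose (2 genes) markers were all removed as dim. Replicate arrays correlated between 0.964 and 0.974 (Pearson's r across probe sets, which are not independent) and arrays of different groups between 0.960 and 0.967. Chga itself was dim, between 44.5 and 231 in knockout and between 42.5 and 185 in wild-type arrays, so its probe set does not check the group labels.

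No amino acid gene differed between knockout and wild-type liver at an adjusted p under 0.05. The count was 0 of 42, beside 51 of all 13576 probe sets (0.376%) and 34 of 8047 genes (0.423%). At an unadjusted p under 0.05 there were 11 of 42, 8 higher in knockout (Asl, Arg1, Glud1, Oat, Kmo, Haao, Gstz1 and Csad) and 3 lower (Gpt2, Agxt and Pccb). That share, 26.2%, stood beside 10.3% of all genes by the same rule, 4.57% higher and 5.69% lower. Counts by pathway and in other lists below are to be read against the same shares of all genes. The 3 arrays of one group all lay above or all below those of the other for 14 of the 42, 10 higher and 4 lower, beside 15.6% of all genes, 7.77% higher and 7.84% lower. The median change was 0.038 over the 42 and -0.015 over all genes, and 26 of the 42 were above 0.

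**Figure D1:**
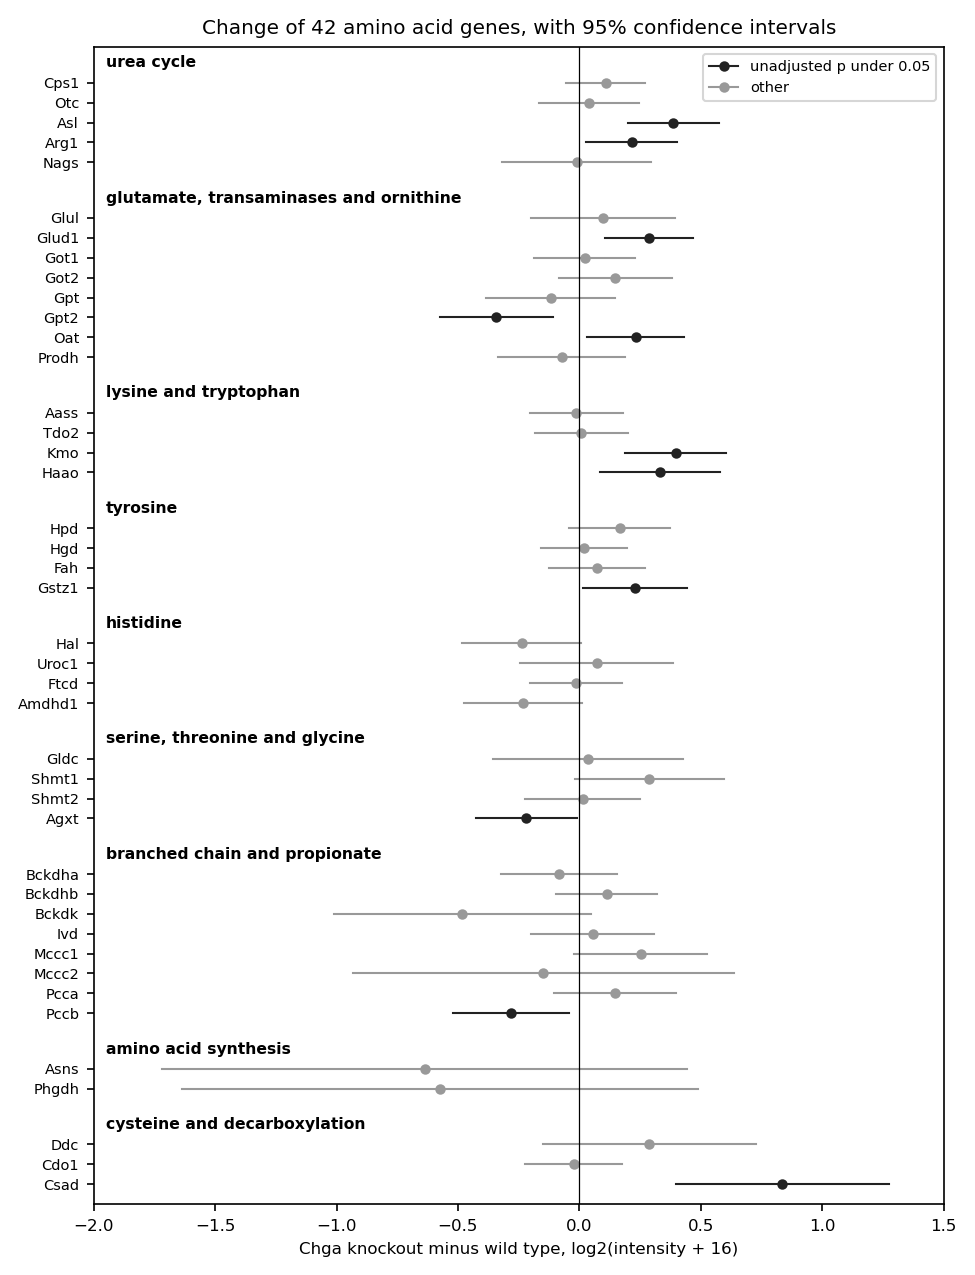
Change of each amino acid gene, Chga knockout minus wild type on the log2(intensity + 16) scale (x axis), by pathway (y axis). Points are the fitted changes, lines their 95% confidence intervals, and black marks the 11 genes at an unadjusted p under 0.05, 8 of them to the right of 0 and 3 to the left.

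In the urea cycle, 2 of the 5 genes measured, Asl and Arg1, were higher in knockout liver at an unadjusted p under 0.05, and 0 passed the adjusted test. By the same rule 4.57% of all genes were higher, and 13.8% of all genes in the top 5% of signal, where Asl and Arg1 lie. Ass1, whose enzyme acts just before Asl, was not analysed. Asl, argininosuccinate lyase, which splits argininosuccinate into arginine and fumarate, read 35066, 32908 and 34137 in knockout and 26237, 27145 and 24713 in wild type. Every knockout array lay above every wild-type array, with means of 34037 ± 1083 and 26032 ± 1229 (SD, n = 3 each). The change was 0.39 ± 0.08 (SE), or 1.31-fold with a 95% interval from 1.15 to 1.49 (limma adjusted p = 0.0914, unadjusted p = 0.000855). Arg1, the liver arginase that releases urea, read 120918, 137480 and 124647 in knockout against 102551, 109869 and 117549 in wild type. Its groups did not overlap, though the lowest knockout array stood close to the highest wild-type one, and the change was 0.22 ± 0.09 (adjusted p = 0.440).

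Cps1, carbamoyl phosphate synthetase, which commits ammonia to the cycle, read 123938, 122024 and 120189 in knockout and 110196, 110451 and 119032 in wild type. Its knockout arrays were also all the higher ones, by a small margin (0.11 ± 0.07, adjusted p = 0.666), and the interval of the fold ran from 0.964 to 1.21. After quantile normalization between arrays the change of Cps1 was 0.019. Otc, which joins carbamoyl phosphate to ornithine, read 60772, 50915 and 50310 in knockout against 51137, 54168 and 51800 in wild type, with overlapping groups and a fold between 0.891 and 1.19. Its brightest probe set and the next moved by 0.039 and 0.022, and its dimmest by -0.36 ± 0.25. Nags, which makes the N-acetylglutamate that activates Cps1, read 4580, 4891 and 5088 in knockout and 4137, 4883 and 5777 in wild type, and its groups overlapped fully (-0.011 ± 0.14). The ratio of Asl to Arg1 signal within an array differed by 0.17 (log2) between the groups, with overlap (exact permutation p = 0.3). With 3 against 3 arrays such a ratio cannot give a p below 0.1, so this does not show whether Asl and Arg1 differed alike.

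Among the genes of glutamate, transaminases and ornithine, Glud1 and Oat were higher and Gpt2 lower at an unadjusted p under 0.05, and 0 passed the adjusted test. Glud1, the mitochondrial glutamate dehydrogenase, read 50078, 50805 and 54076 in knockout and 40961, 41240 and 44871 in wild type. The groups stood clear of each other, at 51653 ± 2130 and 42357 ± 2182 (SD, n = 3 each), and the change was 0.29 ± 0.08 (adjusted p = 0.225). Its second probe set gave 0.22 ± 0.11 (limma unadjusted p = 0.0705), with overlapping groups. There wild-type replicate 3, at 47326, lay above knockout replicates 2 and 3, at 47166 and 44384. Oat, ornithine aminotransferase, which degrades ornithine in pericentral cells, read 54876, 50394 and 61442 in knockout and 46976, 46823 and 47685 in wild type, with no overlap and a wider spread in knockout (0.23 ± 0.09, adjusted p = 0.434).

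Gpt2, the mitochondrial alanine transaminase, read 19749, 21944 and 18556 in knockout and 22836, 27469 and 26095 in wild type. All knockout arrays were lower, at 20083 ± 1718 against 25467 ± 2379 (SD, n = 3 each), and the change was -0.34 ± 0.10 (adjusted p = 0.264). Its other 2 probe sets gave -0.45 ± 0.13 and -0.31 ± 0.16, in the same direction. Gpt, the cytosolic form, was at -0.12 ± 0.12. The within-array ratio of Gpt to Gpt2 overlapped between the groups (difference 0.22, exact permutation p = 0.3).

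Glul, glutamine synthetase, read 28088, 36277 and 38463 in knockout against 36039, 32021 and 27747 in wild type, with overlapping groups, a change of 0.097 ± 0.13 and a fold between 0.871 and 1.31. The aspartate transaminases Got1 (0.023 ± 0.09) and Got2 (0.15 ± 0.11) and the proline oxidase gene Prodh (-0.073 ± 0.12) also had overlapping groups. Of the 8 genes measured here, 2 were higher and 1 lower at an unadjusted p under 0.05, with a median of 0.060. All genes stood at 4.57% higher and 5.69% lower by that rule. In the top 5% of signal, where Glud1, Oat and Gpt2 lie, they stood at 13.8% and 6.89%.

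**Figure D2:**
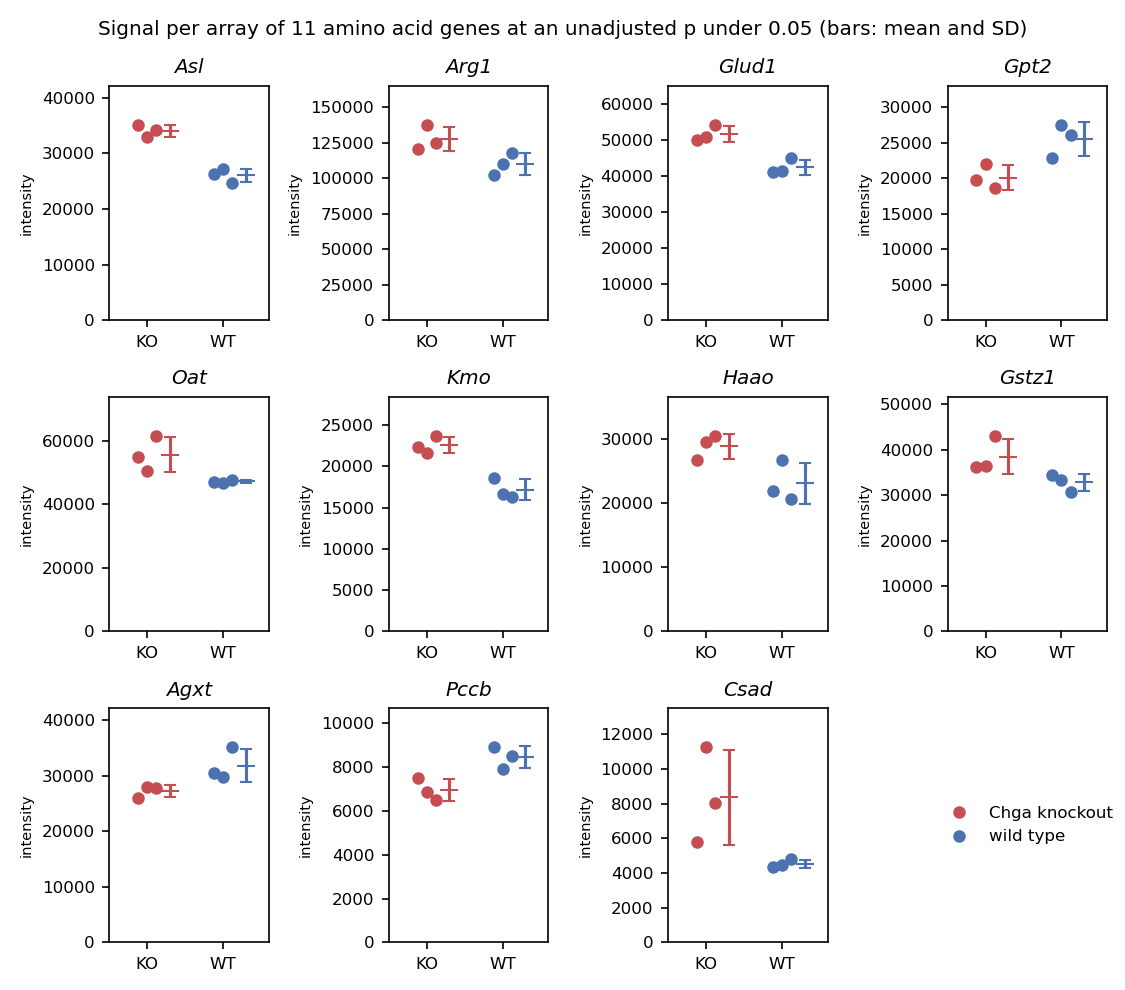
Signal (intensity, y axis from 0) of the 11 amino acid genes at an unadjusted p under 0.05, 1 dot per array, with the mean and SD of the 3 arrays of each group beside the dots. Knockout arrays stand left of wild-type arrays, and in each of these panels the 2 groups do not overlap.

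In the kynurenine route of tryptophan, Kmo and Haao were higher at an unadjusted p under 0.05, short of the adjusted threshold. Kmo, kynurenine 3-monooxygenase, read 22377, 21692 and 23685 in knockout and 18629, 16609 and 16290 in wild type. The groups were well apart, at 22585 ± 1013 and 17176 ± 1269 (SD, n = 3 each), with a change of 0.40 ± 0.09, or 1.32-fold with a 95% interval from 1.14 to 1.52 (adjusted p = 0.125). Haao, 3-hydroxyanthranilate dioxygenase, which acts after Kmo and kynureninase, read 26679, 29478 and 30433 in knockout and 21863, 26648 and 20624 in wild type. Wild-type replicate 2 almost reached the lowest knockout array, and the change was 0.33 ± 0.11 (adjusted p = 0.336).

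Tdo2, the hepatic tryptophan dioxygenase that opens the route, stood at 0.0070 ± 0.09 with a fold between 0.880 and 1.15. Kynu, kynureninase, was dim, between 97.8 and 391 in knockout and between 290 and 482 in wild type. Aass, which starts lysine breakdown, stood at -0.012 ± 0.09. Of 8 other genes of these routes, Kyat3, a kynurenine aminotransferase, was higher at an unadjusted p under 0.05 (0.65 ± 0.18, adjusted p = 0.209), with knockout arrays at 20307, 23068 and 19891 and wild-type arrays at 16748, 15145 and 9409. Wild-type replicate 3 was the lowest of these. Pipox, the peroxisomal pipecolate oxidase of lysine breakdown, was lower by the same measure (-0.23 ± 0.09, adjusted p = 0.433), and the other 6 had an unadjusted p above 0.05.

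The 4 tyrosine genes were all above 0, though Hpd (-0.0078) and Hgd (-0.029) were below it after quantile normalization, and 1 of the 4 had an unadjusted p under 0.05. This was Gstz1, maleylacetoacetate isomerase, which read 36082, 36383 and 42987 in knockout and 34370, 33263 and 30736 in wild type. Knockout replicate 3 was the highest and the groups did not overlap (0.23 ± 0.10, adjusted p = 0.479). Hpd, the hydroxyphenylpyruvate dioxygenase before it in the route, was at 0.17 ± 0.09, and Hgd and Fah, the oxygenase and the last hydrolase, were at 0.019 ± 0.08 and 0.073 ± 0.09. Among 4 other genes of phenylalanine and tyrosine, Qdpr, which recycles the tetrahydrobiopterin used to hydroxylate phenylalanine, read 98019, 110374 and 112778 in knockout and 92312, 84524 and 90414 in wild type, with no overlap (0.26 ± 0.08, adjusted p = 0.295). Gch1, which starts the synthesis of that cofactor, was on the lower side (-0.33 ± 0.14, adjusted p = 0.489) with overlapping groups. Tat, tyrosine aminotransferase, a classic glucocorticoid-induced gene, was at 0.16 ± 0.16.

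The 4 histidine genes had a median change of -0.12, with 1 of 4 above 0 and 0 at an unadjusted p under 0.05. Hal, histidine ammonia-lyase, which takes the first step, read 15844, 14105 and 16922 in knockout and 19845, 19106 and 16329 in wild type. Wild-type replicate 3 lay among the knockout arrays, and the change was -0.24 ± 0.11 (unadjusted p = 0.0566). Amdhd1, the third enzyme of the route, had the same arrangement, at -0.23 ± 0.11, and Uroc1 (0.071 ± 0.14) and Ftcd (-0.014 ± 0.09), the second and the last, lay near 0. Hal and Amdhd1 did reach an unadjusted p under 0.05 with quantile normalization, no filter on dim probe sets or array weights. They also did without knockout replicate 3 and without wild-type replicate 3.

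Serine, threonine and glycine genes were represented by 4 of 8. Agxt, the peroxisomal alanine glyoxylate aminotransferase that clears glyoxylate to glycine, read 25994, 27918 and 27779 in knockout and 30439, 29767 and 35122 in wild type. The knockout arrays were all lower, and the change was -0.22 ± 0.09 (adjusted p = 0.480). Shmt1, the cytosolic serine hydroxymethyltransferase, read 11638, 16521 and 15969 in knockout and 12989, 11067 and 11750 in wild type. Knockout replicate 1 lay among the wild-type arrays (0.29 ± 0.14, unadjusted p = 0.0638), and the other 3 probe sets of Shmt1 gave between 0.21 and 0.27. Shmt2, its mitochondrial counterpart, was at 0.013 ± 0.11 and the glycine decarboxylase gene Gldc at 0.036 ± 0.18. Of 8 other serine and glycine genes, Srr, serine racemase, which can also dehydrate serine, was higher at an unadjusted p under 0.05 (0.41 ± 0.11, adjusted p = 0.178), with knockout arrays at 8561, 7402 and 8344 and wild-type arrays at 6454, 5821 and 5939.

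Genes of branched chain and propionate breakdown were scattered around 0, with 4 of 8 above it and a median of -0.014. Pccb, the beta subunit of propionyl-CoA carboxylase, read 7497, 6867 and 6518 in knockout and 8922, 7918 and 8520 in wild type, with no overlap (-0.28 ± 0.11, adjusted p = 0.426). Pcca, the alpha subunit of the same enzyme, was at 0.15 ± 0.11. The log2 ratio of Pcca to Pccb signal within an array was 0.68, 0.47 and 0.66 in knockout and 0.035, 0.36 and 0.13 in wild type. It was higher in each knockout array, the only one of 9 partner ratios whose groups did not overlap (exact permutation p = 0.1, the smallest that 3 against 3 arrays allow, and 0.386 adjusted over the 9 ratios). These 9 ratios were chosen after the values were seen, and since probe sets differ in response, only the difference of a ratio between groups can be read.

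Bckdk, the kinase that inhibits the branched chain dehydrogenase, read 527, 687 and 569 in knockout and 710, 943 and 857 in wild type. Its knockout arrays were all lower, the lowest wild-type array being near the highest knockout one, and the change was -0.48 ± 0.24 (unadjusted p = 0.0711). The dehydrogenase subunits Bckdha and Bckdhb were at -0.083 ± 0.11 and 0.11 ± 0.09, and the ratio of Bckdk to Bckdha overlapped between groups (exact permutation p = 0.2). Ivd, isovaleryl-CoA dehydrogenase, was at 0.055 ± 0.11. The methylcrotonyl-CoA carboxylase subunits were at 0.25 ± 0.12 for Mccc1, whose groups did not overlap, and -0.15 ± 0.35 for Mccc2. Of 12 other branched chain genes, Hsd17b10, a mitochondrial dehydrogenase of isoleucine breakdown, was higher at an unadjusted p under 0.05 (0.50 ± 0.14, adjusted p = 0.211), at 19670, 23096 and 28662 in knockout against 18816, 16401 and 14866 in wild type.

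Cysteine catabolism gave the largest positive change among the 42. Csad, cysteine sulfinic acid decarboxylase, a step of taurine synthesis, read 5818, 11271 and 8052 in knockout and 4345, 4449 and 4787 in wild type. The wild-type arrays were close together and the knockout arrays far apart, with knockout replicate 1 the lowest of them, and the means were 8380 ± 2741 and 4527 ± 231 (SD, n = 3 each). The change was 0.84 ± 0.20, or 1.78-fold with a 95% interval from 1.32 to 2.42 (adjusted p = 0.125). Without knockout replicate 1 it was 1.07 and passed (adjusted p = 0.0224). It did not pass without knockout replicate 2, the highest array (0.60, adjusted p = 0.262), or without knockout replicate 3 (0.84, adjusted p = 0.233). Cdo1, cysteine dioxygenase, which makes the substrate of Csad, was at -0.023 ± 0.09. Ddc, the aromatic amino acid decarboxylase, was at 0.29 ± 0.20 with overlapping groups. Among 5 other sulfur genes, Sqor, the sulfide oxidoreductase, was higher at an unadjusted p under 0.05 (0.25 ± 0.10, adjusted p = 0.427).

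Among the 42 genes, Asns and Phgdh, of amino acid synthesis, had the largest spread within groups, with an SD of 0.92 and 0.91 on the log2 scale. Asns, asparagine synthetase, a target of the amino acid response through ATF4, read 657, 641 and 2221 in knockout and 1612, 2649 and 842 in wild type. The groups overlapped, with knockout replicate 3 high and wild-type replicate 3 low. The change was -0.64 ± 0.49, and its second probe set gave -1.08 ± 0.53. With 1 array left out it ran from -1.22, without knockout replicate 3, to -0.25. Phgdh, which starts serine synthesis, read 1398, 413 and 2122 in knockout and 1706, 1144 and 2123 in wild type (-0.57 ± 0.48), and its direction turned without knockout replicate 2 (0.099). Psat1, the next step, was between 135 and 280 in knockout and between 113 and 253 in wild type, and was removed as dim. The 95% intervals of the fold ran from 0.304 to 1.36 for Asns and from 0.321 to 1.40 for Phgdh.

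Promoters are shown for Asns, whose control by amino acid supply is known, for Haao and Agxt, higher and lower genes that share a glucocorticoid receptor motif, and for Kmo, a higher gene in which none of the searched motifs was found. Genes and motifs were chosen after the values were seen. Each is the 250 bases before the RefSeq start in GRCm38.p6, read on the gene's strand, with motif matches in capitals. They lie at chr6:7693210-7693459 (minus strand), chr17:83846791-83847040 (minus), chr1:93134990-93135239 (plus) and chr1:175631943-175632192 (plus).
Asns: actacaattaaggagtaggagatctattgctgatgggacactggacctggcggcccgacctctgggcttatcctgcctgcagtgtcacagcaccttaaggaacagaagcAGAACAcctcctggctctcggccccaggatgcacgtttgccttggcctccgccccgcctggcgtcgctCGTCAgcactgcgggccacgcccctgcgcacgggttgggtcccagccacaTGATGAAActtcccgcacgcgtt
Haao: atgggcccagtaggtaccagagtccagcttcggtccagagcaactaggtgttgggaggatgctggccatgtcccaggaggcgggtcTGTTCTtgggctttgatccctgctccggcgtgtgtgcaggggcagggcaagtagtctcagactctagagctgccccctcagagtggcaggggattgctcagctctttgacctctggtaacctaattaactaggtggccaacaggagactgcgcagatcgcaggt
Agxt: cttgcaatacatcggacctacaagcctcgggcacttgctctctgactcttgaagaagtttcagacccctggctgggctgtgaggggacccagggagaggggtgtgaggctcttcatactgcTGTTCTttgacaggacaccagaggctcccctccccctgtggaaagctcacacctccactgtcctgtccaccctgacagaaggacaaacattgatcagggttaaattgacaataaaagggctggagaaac
Kmo: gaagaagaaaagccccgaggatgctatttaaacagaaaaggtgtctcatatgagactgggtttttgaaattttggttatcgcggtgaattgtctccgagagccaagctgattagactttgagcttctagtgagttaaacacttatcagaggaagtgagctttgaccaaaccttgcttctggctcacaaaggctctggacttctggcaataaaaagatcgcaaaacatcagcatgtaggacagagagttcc

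The motifs were searched on both strands in the 46 windows of the 40 listed genes that RefSeq gave, and in 32851 windows of all genes. The amino acid response element TGATGNAA stood in 2 windows (4.35%), those of Got1 and Asns, against 3.45% of all windows. The C/EBP core TTGCNNAA stood in 3 windows (6.52%), against 9.56%. The CREB core TGACG stood in 7 (15.2%), against 17.8%, and the glucocorticoid receptor core AGAACA in 6 (13%), those of Haao, Agxt, Bckdhb, Bckdk, Pccb and Asns, against 16.1%. The shares lay near those of all windows, and a match describes letters and not binding.

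Higher signal in knockout was most frequent among the brightest of these genes. Of the 42 genes, 23 were in the top 5% of all probe sets by mean signal, and 9 of these 23 (39.1%) had an unadjusted p under 0.05, 7 higher and 2 lower, beside 20.7% of all 711 genes in that range, 13.8% higher and 6.89% lower. Of the 19 below it, 2 did (10.5%), beside 9.26% of the 7336 genes there. Groups did not overlap for 10 of the 23 (43.5%), beside 24.8%, and for 4 of the 19 (21.1%), beside 14.7%. In the same bright range 67.4% of all genes were above 0, with a median of 0.057, and 17 of the 23 amino acid genes were, with a median of 0.097. This range was set after the values were seen. Hepatocyte markers lay in it too, with 7 of 8 above 0, a median of 0.11 and 0 at an unadjusted p under 0.05.

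**Figure D3:**
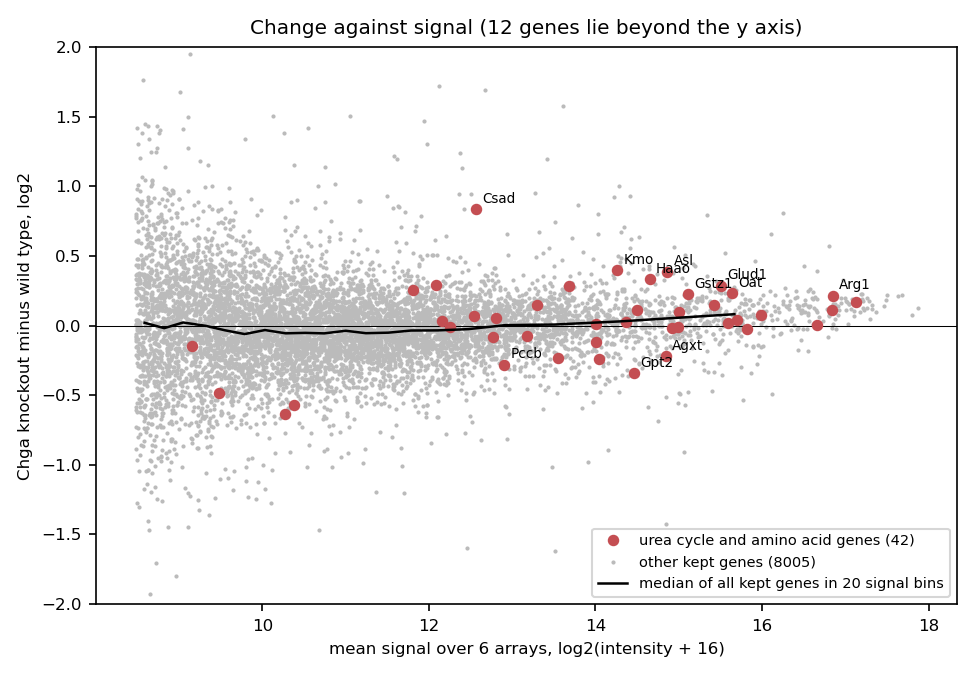
Change of each gene, Chga knockout minus wild type (log2, y axis), against its mean signal over the 6 arrays (log2(intensity + 16), x axis). Red dots are the 42 amino acid genes, with those at an unadjusted p under 0.05 named, grey dots the other 8005 kept genes, and the black line is the running median of all kept genes, which lies above 0 at the bright end, where many of the amino acid genes are.

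**Figure D4:**
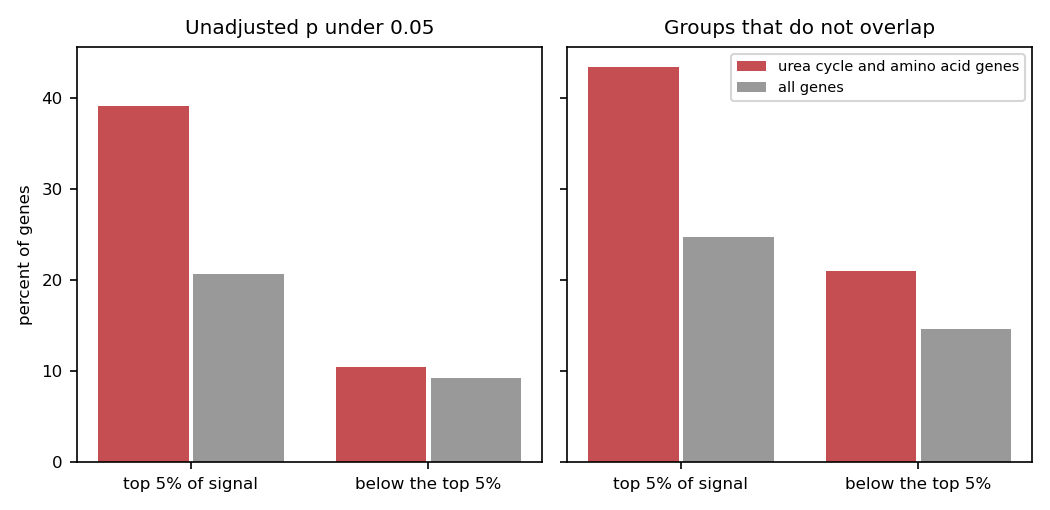
Percent of genes (y axis) at an unadjusted p under 0.05 (left) and with groups that do not overlap (right), among amino acid genes (red) and all genes (grey), in the top 5% of signal and below it. In the bright range the amino acid genes stand at 39.1% against 20.7% on the left and at 43.5% against 24.8% on the right.

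The shift of the bright genes differed between knockout arrays. Relative to the wild-type mean, the median of the 42 genes was -0.016, 0.0028 and 0.18 in knockout replicates 1, 2 and 3 and between -0.011 and 0.032 in the wild-type arrays. The median of all genes in the top 5% of signal was 0.011, 0.079 and 0.10 in the same knockout arrays, and that of the hepatocyte markers 0.040, 0.24 and 0.12. Knockout replicate 3 thus gave the largest median of the amino acid genes. The part of this shift in the changes of single genes was not tested. After quantile normalization between arrays, which removes a common shift of bright genes, Asl, Glud1, Gpt2, Oat, Kmo, Haao, Gstz1, Agxt, Pccb and Csad kept an unadjusted p under 0.05, while Arg1, with a change of 0.11, did not. Hal and Amdhd1, both lower, and Mccc1, higher, came under it. The count was then 13 of the 42, 8 higher and 5 lower, beside 9.74% of all genes. Groups did not overlap for 11 of the 42, beside 15.3% of all genes. The median of the 42 genes was then -0.0012, beside -0.00048 over all genes.

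Beyond the 42 genes, 49 of 68 other genes of amino acid metabolism were kept. At an unadjusted p under 0.05, 5 of them were higher and 2 lower, beside the 4.57% and 5.69% of all genes, with a median change of 0.0089 and 0 at an adjusted p under 0.05. They include the mitochondrial carriers of the urea cycle, Slc25a15 for ornithine (0.048 ± 0.08) and Slc25a13 for aspartate (0.19 ± 0.12). Of 11 regulators of amino acid catabolism, 1 had an unadjusted p under 0.05, a share near the 10.3% of all genes. This regulator was Ppara, a fasting regulator known to repress amino acid catabolic genes in mouse liver. Ppara read 22052, 27163 and 31889 in knockout and 36473, 39689 and 42027 in wild type (-0.56 ± 0.13, adjusted p = 0.113). Whether Ppara bears on the changes of the amino acid genes was not tested. The glucagon receptor gene Gcgr (-0.068 ± 0.20), the glucocorticoid receptor gene Nr3c1 (-0.082 ± 0.11), Klf15 (-0.0060 ± 0.15) and Atf4 (-0.10 ± 0.16) had overlapping groups.

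Because urea cycle genes are periportal, zonation markers outside the list were set beside them. Of 9 periportal markers, 4 were above 0, with a median of -0.11, and 1 was higher and 1 lower at an unadjusted p under 0.05. By that rule 4.57% of all genes were higher and 5.69% lower, and the counts of the other markers stand beside the same shares. Cdh1, a periportal adhesion gene, was lower at an adjusted p of 0.0100 (-1.01 ± 0.13), while Cyp2f2 was at 0.16 ± 0.09 and Pck1 at -0.15 ± 0.10. G6pc, the glucose-6-phosphatase gene, was the higher one (0.93 ± 0.39, adjusted p = 0.467), with overlapping groups. The summed signal of the periportal markers was between 334680 and 366217 in knockout and between 322847 and 351640 in wild type. Of 10 pericentral markers, 7 were above 0, with a median of 0.063. Of these 10, 1 was higher at an unadjusted p under 0.05, Cyp2c29 (0.19 ± 0.08, adjusted p = 0.469), and 0 were lower. The summed signal of the pericentral markers was between 410598 and 478867 in knockout and between 394257 and 418110 in wild type. Markers of Kupffer cells and macrophages were above 0 in 1 of 9 kept genes, with a median of -0.21 and a summed signal of all 10 between 19020 and 30603 in knockout and between 23960 and 31436 in wild type. Of 7 kept stellate cell and matrix markers, 1 was above 0 and 2 were lower at an unadjusted p under 0.05, with a median of -0.24 and a summed signal of all 9 between 23684 and 30286 in knockout and between 27792 and 36153 in wild type. Endothelial markers had a median of -0.035 over 7 kept genes and 0 at that p. Of 5 lymphocyte and 3 erythroid markers measured, 1 of each was kept, Ptprc (-0.22) and Alas2 (-0.026), both with overlapping groups. Among those removed as dim, Cd3d, Cd79a and Hba-a1 read higher in every knockout array than in any wild-type array, and Cd3e, Nkg7 and Slc4a1 overlapped. Without the filter, groups did not overlap, in either direction, for 13.6% of all genes. Of 2 pancreas markers measured, the 1 kept, Cela1, was lower at that p (-0.58). The other, Cpa1, lay at the 1.27th percentile of signal, between 19.4 and 27.3 on all arrays, and was removed as dim. The summed signal of both, almost all of it from Cela1, was between 4685 and 7992 in knockout and between 9155 and 9677 in wild type. The part of cell composition in the results was not tested.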

How the data were processed

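Liver RNA of 3 Chga knockout and 3 wild-type mice was measured on 6 arrays. The deposited values are linear intensities; GCOS 1.2 was used, per the submitters' processing notes. Means with 2% trimmed off both tails lay between 2501.32 and 2501.42, so arrays had been scaled before deposit. The scaling rule is not given in the labels, and no detection calls were used. The table held 22690 probe sets, of which 64 controls were left out; 20380 of the rest had 1 gene, 691 several and 1555 none, with symbols updated through RefSeq (GRCm38.p6).

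The test was limma 3.58.1 (R 4.3.3; lmFit, then eBayes with an intensity trend, no covariate) on log2(intensity + 16), adjusted by Benjamini-Hochberg across all 13576 probe sets kept. The procedure was tested on simulated data. The changes planted there were larger than any fitted for the amino acid genes, so it does not show how well changes of their size are found. The genes, lists and tests were chosen with earlier results of these data known. Values per array are given for urea cycle genes, genes at an unadjusted p under 0.05, Glul and the largest change of each pathway; of other lists, up to 3 genes at that p. Same-numbered arrays did not deviate together (r between -0.065 and -0.059), so numbers were not taken as pairs. The labels' protocol gives 3 mice per group for the 3 arrays of each. The number of arrays limits the precision. Alternatives were pseudocounts of 1, 64 and 256, quantile normalization, median centring, no filter, the upper 40%, no trend, array weights, a replicate block, the mean of a gene's probe sets, and each array left out.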

Additional observations from a re-analysis of the deposited data

How the results depend on the processing

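The 42 genes were refitted under 17 alternatives. The count at an adjusted p under 0.05 stayed at 0 except for Csad (1) without knockout replicate 1. The count at an unadjusted p under 0.05, 11 in the report, stayed there with the other pseudocounts and the upper 40%. It was 6 without the trend and 9 with a replicate block (where 27 of all probe sets passed the adjusted threshold, against 51). It was 9 with median centring, 12 by the mean of probe sets, 13 with quantile normalization or no filter, and 14 with array weights. With 1 array left out it was 7 to 13, lowest without wild-type replicate 1. Beside these, the share of all genes was 10.2% to 10.4% with the other pseudocounts and 12.0% with the upper 40%. It was 8.67% without the trend, 8.31% with the block and 9.26% with median centring, and was not computed for the mean of probe sets. It was 9.74% with quantile normalization, 8.16% with no filter, 11.2% with array weights and 7.69% to 12.3% with 1 array left out. The cause was not tested. Asl, Glud1, Gpt2, Kmo and Csad kept an unadjusted p under 0.05 in all 17; Haao did in 15, Oat and Pccb in 12 each, Arg1 and Gstz1 in 11 each and Agxt in 9. With 1 array left out, Haao kept it in 5 of 6 fits, Arg1 and Gstz1 in 3, Oat and Pccb in 2 and Agxt in 1. Genes outside the 11 also came under it, beside those named above. They were Bckdk without the trend, Mccc1 with no filter, and Shmt1 with array weights or the mean of probe sets. Got2, Hpd and Shmt1 did so without knockout replicate 1, and Ddc without knockout replicate 2. The median, 0.038 in the report, was -0.0012 after quantile normalization and ran from 0.015 to 0.077 with 1 array left out. Of 712 gene values under alternatives, 42 changed sign, in 17 genes, 0 of them among the 11. After quantile normalization these were Otc (-0.013), Nags (0.020), Got1 (-0.015), Tdo2 (-0.10), Hpd (-0.0078), Hgd (-0.029) and Shmt2 (-0.0068); after median centring Nags (0.0031), Aass (0.0025) and Ftcd (0.00030); with array weights Nags (0.0046), Gldc (-0.048) and Cdo1 (0.010); by the mean of probe sets Otc (-0.099), Tdo2 (-0.017), Shmt2 (-0.013) and Ivd (-0.0021). With 1 array left out the changes ran from -0.049 to 0.087 for Otc, -0.13 to 0.11 for Nags, -0.000093 to 0.23 for Glul, -0.025 to 0.077 for Got1, -0.14 to 0.034 for Prodh, -0.058 to 0.023 for Aass, -0.043 to 0.082 for Tdo2, -0.0073 to 0.060 for Hgd, -0.088 to 0.16 for Uroc1, -0.052 to 0.029 for Ftcd, -0.14 to 0.17 for Gldc, -0.076 to 0.098 for Shmt2, -0.014 to 0.12 for Ivd, -0.47 to 0.046 for Mccc2, -1.06 to 0.099 for Phgdh, -0.099 to 0.032 for Cdo1 and 0.60 to 1.07 for Csad. Without the filter 44 genes were tested, and 43 without knockout replicate 3, where the filter was set anew. Intensities of dim genes were not set against a detection limit.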
